A study of Mus musculus with 4 samples.

Results

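The genes of vascular endothelial growth factor (VEGF) signalling examined here are 4 ligand genes, Vegfa, Vegfb, Vegfc and Pgf, 3 receptor tyrosine kinase genes, Kdr, Flt1 and Flt4, and the co-receptor genes Nrp1 and Nrp2. They were chosen by gene name, and these 9 genes are represented by 13 of the 55681 non-control probes of the array. The arrays were hybridised with RNA from the submandibular salivary gland of C57BL/6 mice aged 8 to 10 weeks. Stem cells and non-stem cell epithelia had been separated by fluorescence-activated sorting, and each group has 2 arrays. The labels name no genetic change and no treatment apart from the sort, whose markers the sources used here do not name. They also do not say whether the 2 samples of a group are separate animals or sorts, so each p-value reflects the spread between these samples alone, which may be technical. Each SE and p-value of limma also draws on the variance of all probes tested, so it is not the spread of that probe alone.

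VEGF ligands are secreted dimers that bind receptor tyrosine kinases found mainly on endothelial cells. VEGF-A acts through the receptors encoded by Kdr and Flt1, VEGF-B and placental growth factor bind the Flt1 product, and VEGF-C acts mainly through the Flt4 product on lymphatic vessels. Neuropilins, the products of Nrp1 and Nrp2, bind both VEGF ligands and class 3 semaphorins and have no kinase of their own. In glands, epithelial cells are a known source of VEGF-A, while the receptors are best known from the vessels around them.

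Most of the probes that carry the results are shown by their first 30 of 60 bases, 5′ to 3′, because the probes of one gene gave different readings. Where a gene has a pair of probes, they are called upstream and downstream by their order along the transcribed strand. Positions are those of the scanner files on mouse build mm9. Their place in exons or untranslated regions was not determined, and no probe shared a run of 20 bases with another probe on the array.
Vegfa downstream probe, chr17:46154387-46154446 (- strand): cagatcggtgacagtcactagcttgtcctg
Vegfb probe, chr19:7057245-7057304 (- strand): tgcttttatggccctgcttcacagggagaa
Vegfc probe, chr8:55271533-55271592 (+ strand): tctgtgtttattgaaccatgtggattactg
Flt1 downstream probe, chr5:148373791-148373850 (- strand): aagtaaagaaaagctatcgggattctctgg
Kdr upstream probe, chr5:76330395-76330454 (- strand): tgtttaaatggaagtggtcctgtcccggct
Kdr downstream probe, chr5:76329309-76329368 (- strand): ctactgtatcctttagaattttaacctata

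Of the 13 probes, 6 were well above background on all 4 arrays and were tested, 2 were above it on 1 array and 5 on none. The tested probes represent 5 of the 9 genes, namely Vegfa, Vegfb, Vegfc, Kdr and Flt1. Of these 6 probes, 3 were higher in stem cells and 0 were lower by limma at an adjusted p under 0.05. At an unadjusted p under 0.05 the counts were 3 and 1, against 4549 and 5208 of all 22639 probes tested. Among all 22639 probes tested, 13.1% were called higher and 15.8% lower. The median log2 difference was 0.60 over the 6 member probes and -0.01 over all probes tested. Both stem cell arrays lay above both others for 5 of the 6 probes and below them for 1, against 34.5% and 36% of all probes tested. Values below are log2 signals relative to the 75th percentile of the same array, unless a signal is named as unscaled.

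Unscaled signals were dimmer in stem cells as a whole, which bears on every value of this family. The stem cell arrays had a 75th percentile of 34.0 and 48.9, the others one of 84.2 and 71.1, and 35.7% to 42.3% of spots were well above background. Spike-in control probes stood higher in stem cells by a median of 2.26 on the log2 scale after the percentile shift. With the arrays set to 7 of the 10 spike-ins instead, 21723 of all probes were lower in stem cells and the median log2 difference was -2.21. The directions given here are therefore relative to the other genes of the same array.

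**Figure D1:**
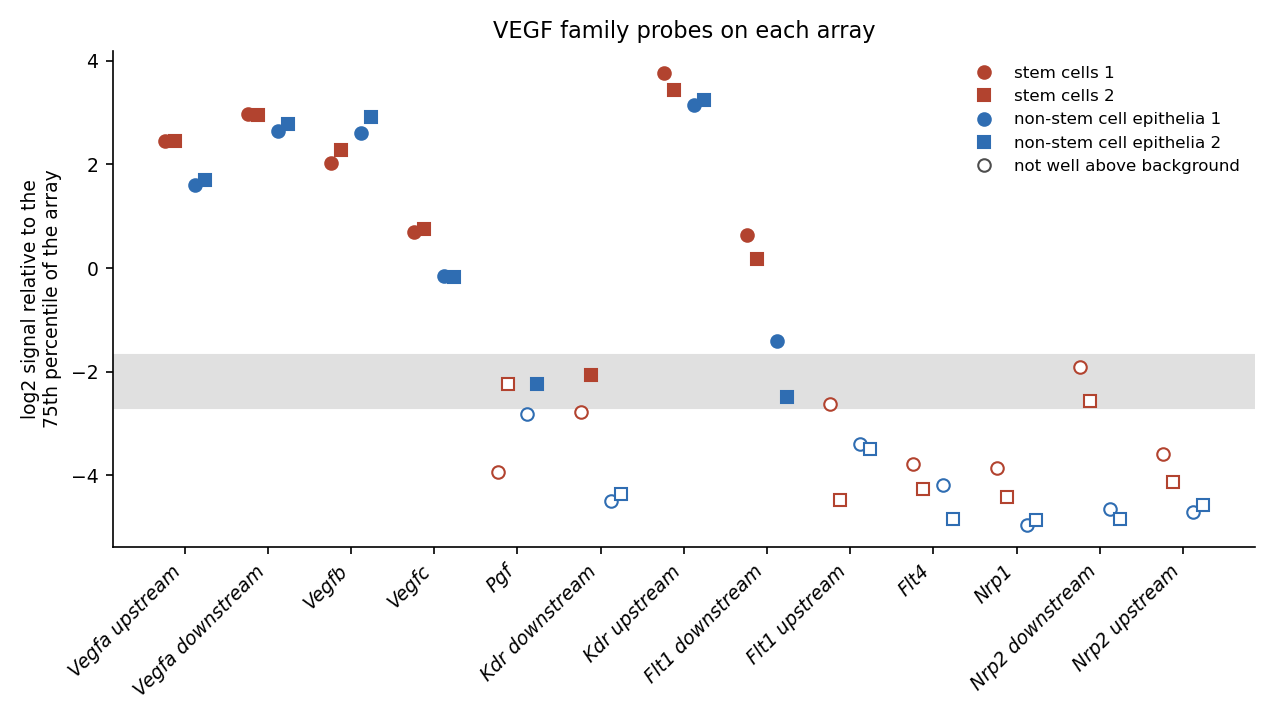
Log2 signal of each probe of the VEGF family (x axis) relative to the 75th percentile of its array (y axis), with 1 point per array, filled where the probe was well above background. The grey band spans the lowest signals well above background on the 4 arrays, from -2.70 to -1.67, and only Vegfa, Vegfb, Vegfc, Flt1 downstream and Kdr upstream have filled points on all 4 arrays.

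Among the ligands, Vegfc and the upstream Vegfa probe were higher in stem cells, while Vegfb lay lower there without passing the test. Vegfc, the ligand gene of lymphatic growth, stood at 0.69 and 0.74 in stem cells, against -0.16 and -0.18 in non-stem cell epithelia. The 2 groups did not overlap, and the arrays of a group differed by far less than the groups. Vegfc was 1.85-fold higher, with a log2 difference of 0.89 ± 0.15 (SE, n = 2 arrays per group, limma adjusted p = 0.013). The call was lost without non-stem replicate 1 (log2 difference 0.90, limma adjusted p = 0.082) and without non-stem replicate 2 (0.88, limma adjusted p = 0.10). It was also lost when all probes were tested without a filter (limma adjusted p = 0.114).

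Vegfa encodes the main angiogenic ligand, and its 2 probes did not give the same reading. The upstream probe stood at 2.44 and 2.44 in stem cells, against 1.60 and 1.70 in non-stem cell epithelia. Both stem cell values lay above both others, and the difference of 0.80 ± 0.15 (SE) passed the test (1.74-fold, limma adjusted p = 0.018). It did not pass without non-stem replicate 1 (log2 difference 0.74) or without non-stem replicate 2 (0.85), with a limma adjusted p = 0.104 in each case. The downstream probe, printed in 2 spots per array, stood at 2.97 and 2.96 in stem cells, against 2.65 and 2.79 in the others. Its difference was 0.25 ± 0.16 (SE, limma adjusted p = 0.27), with a 95% interval from -0.14 to 0.64, and it turned to -0.14 with normexp background correction. With normexp the upstream difference was 0.34 and no longer passed (limma adjusted p = 0.072), nor did it pass without a filter on dim probes (limma adjusted p = 0.121). The downstream probe is the brighter of the pair, so a count of genes by brightest probe leaves Vegfa out. By that count 2 of 5 tested members were higher, Vegfc and Flt1, against 13.2% of the 17359 genes tested, and 0 were lower.

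Vegfb encodes a ligand of the Flt1 receptor. It stood at 2.02 and 2.29 in stem cells, against 2.60 and 2.92 in non-stem cell epithelia. The non-stem values lay above the stem cell values, and the gap between the nearest arrays was about as wide as that between arrays of 1 group. The log2 difference of -0.61 ± 0.20 (SE) did not pass (limma adjusted p = 0.072). Its 95% interval, which is not adjusted for the number of probes, ran from -1.11 to -0.11. It did pass with normexp (-0.84, limma adjusted p = 0.00091), with an intensity trend and robust variances (limma adjusted p = 0.0013), when only probes above background on all arrays were tested (limma adjusted p = 0.027) and without stem cells replicate 2 (-0.74, limma adjusted p = 0.019).

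Pgf, the placental growth factor gene, was above background on 1 array only, non-stem replicate 2, and was not tested. Its unscaled signals were 2.24 and 10.3 in stem cells, against 11.9 and 15.2 in non-stem cell epithelia, where the lowest signals well above background were 12.9 and 11.6. The groups overlapped after scaling. The remaining family ligand gene Figf, which encodes VEGF-D and is not among the 9 genes, was above background on all arrays. It stood at -0.30 and -0.29 in stem cells, against -1.52 and -1.36 in the others, a difference of 1.15 ± 0.16 (SE, 2.21-fold, limma adjusted p = 0.0073).

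Among the receptors, Flt1 was higher in stem cells, the upstream Kdr probe did not pass the test, and Flt4, Nrp1 and Nrp2 were well above background on none of the arrays. The downstream Flt1 probe stood at 0.63 and 0.17 in stem cells, against -1.41 and -2.48 in non-stem cell epithelia. Both stem cell values lay above both others, and the non-stem arrays differed by over 1 unit. Flt1, whose product binds VEGF-A, VEGF-B and placental growth factor, was 5.09-fold higher, with a log2 difference of 2.35 ± 0.39 (SE, limma adjusted p = 0.012). Of all tested probes, 98.7% had a lower difference. The lower non-stem value lay just above the weakest signal that counted as well above background there, -2.61. Without non-stem replicate 2 the log2 difference was 1.81 and did not pass (limma adjusted p = 0.068), and with normexp it was 0.98 and passed. Without a filter on dim probes Flt1 did not pass (limma adjusted p = 0.0645). Unscaled Flt1 signals were 52.6 and 55.0 in stem cells, against 31.6 and 12.7 in the others, which makes Flt1 the only one of the 6 tested probes that was brighter on both stem cell arrays before scaling.

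The other Flt1 probe lies 92185 bases upstream and is annotated on the array with a placental complementary DNA. It stayed below that limit on all 4 arrays, with unscaled signals from 2.21 to 8.04. Flt1 is known to give soluble and membrane-bound forms, and these probes were not assigned to either.

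Kdr encodes the main signalling receptor of VEGF-A, and its 2 probes, 1086 bases apart, also disagreed. The upstream probe stood at 3.76 and 3.44 in stem cells, against 3.14 and 3.25 in non-stem cell epithelia. The groups did not overlap, but the stem cell arrays differed from each other more than the nearest arrays of the 2 groups did. The difference was 0.40 ± 0.18 (SE, limma adjusted p = 0.15), with a 95% interval from -0.06 to 0.86, and it was -0.02 with normexp. It passed with an intensity trend and robust variances (limma adjusted p = 0.023). The downstream probe is printed in 10 spots per array. Of these, 6 were well above background on stem cells replicate 2 and 0 on each of the other 3 arrays. Median unscaled spot signals were 5.85 and 11.6 in stem cells, against 3.15 and 3.06 in the others. The upstream probe gave 460 and 531, and 744 and 677. Signals of different probes cannot be compared as levels, but 1 probe was clear on all arrays while the other was at background on 3 of them. What causes this was not tested.

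**Figure D2:**
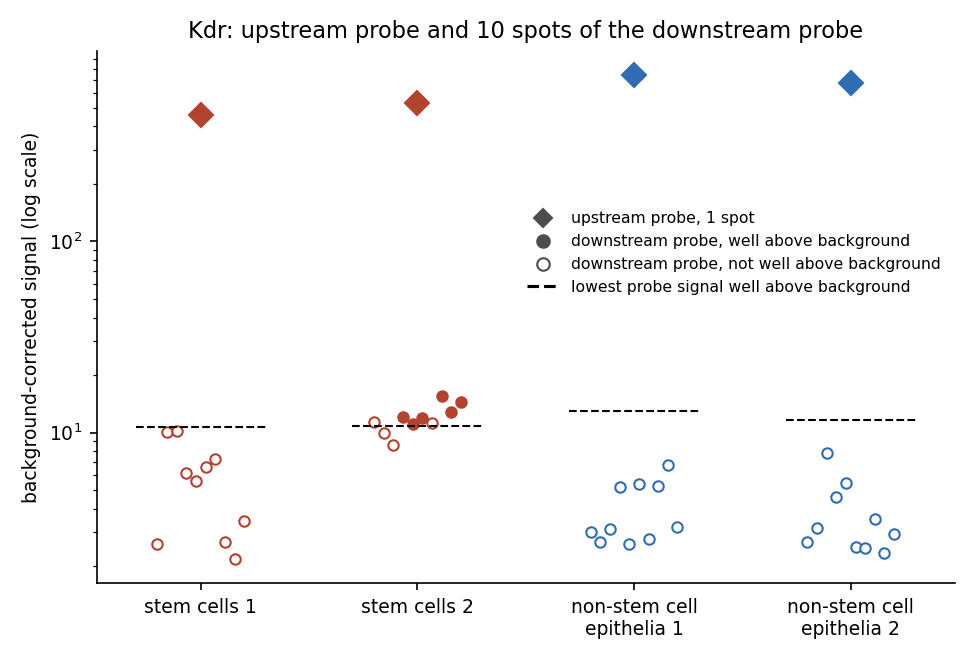
Unscaled background-corrected signal (y axis, log scale) of the upstream Kdr probe (diamonds, 1 spot) and the 10 spots of the downstream probe (circles) on each array (x axis), filled where well above background, with dashes at the lowest probe signal well above background. The diamonds lie between 460 and 744, while the circles lie between 2.18 and 15.5, with 6 filled circles on stem cells replicate 2.

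Flt4, the receptor gene for VEGF-C, had unscaled signals of 2.47 and 2.56 in stem cells, against 4.65 and 2.47 in non-stem cell epithelia. Nrp1 had 2.35 and 2.28, and 2.72 and 2.43. The upstream Nrp2 probe, annotated on the array with transcript variant 5 where the downstream one has variant 1, had signals from 2.80 to 3.22. All of these lie well under the lowest signals that counted as above background, of which the highest was 12.9 (non-stem replicate 1) and none was under 10. The downstream Nrp2 probe had 9.0 and 8.29 in stem cells, against 3.34 and 2.49 in the others. It came nearest to the limit in stem cells, and no fold is given because both groups were under it. Expression of these receptors was not detectable on these arrays, which does not show that it was absent.

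Because all probes of an array share its scaling, the ratio of a pair of them within an array does not depend on the shift. The upstream Vegfa probe over Vegfb was higher in stem cells than in non-stem cell epithelia by 1.40 on the log2 scale, a 2.65-fold change of the ratio. The change of Vegfc over Vegfb was 1.5 (2.82-fold) and that of Flt1 over the upstream Kdr probe 1.95 (3.85-fold). The spread of these ratios between arrays of 1 group was 0.17, 0.20 and 0.59 (pooled SD, n = 2 arrays per group). The upstream over the downstream Vegfa probe changed by 0.55 (1.46-fold) with a spread of 0.02. In each of the 4 ratios both stem cell arrays lay above both others. An exact two-sided permutation test gave p = 0.333 for each, the smallest that 2 arrays against 2 allow. The ratios were chosen after the values were seen. With normexp the changes were 1.19 for Vegfa over Vegfb, 1.31 for Vegfc over Vegfb, 0.48 for the Vegfa pair and 1.00 for Flt1 over Kdr.

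**Figure D3:**
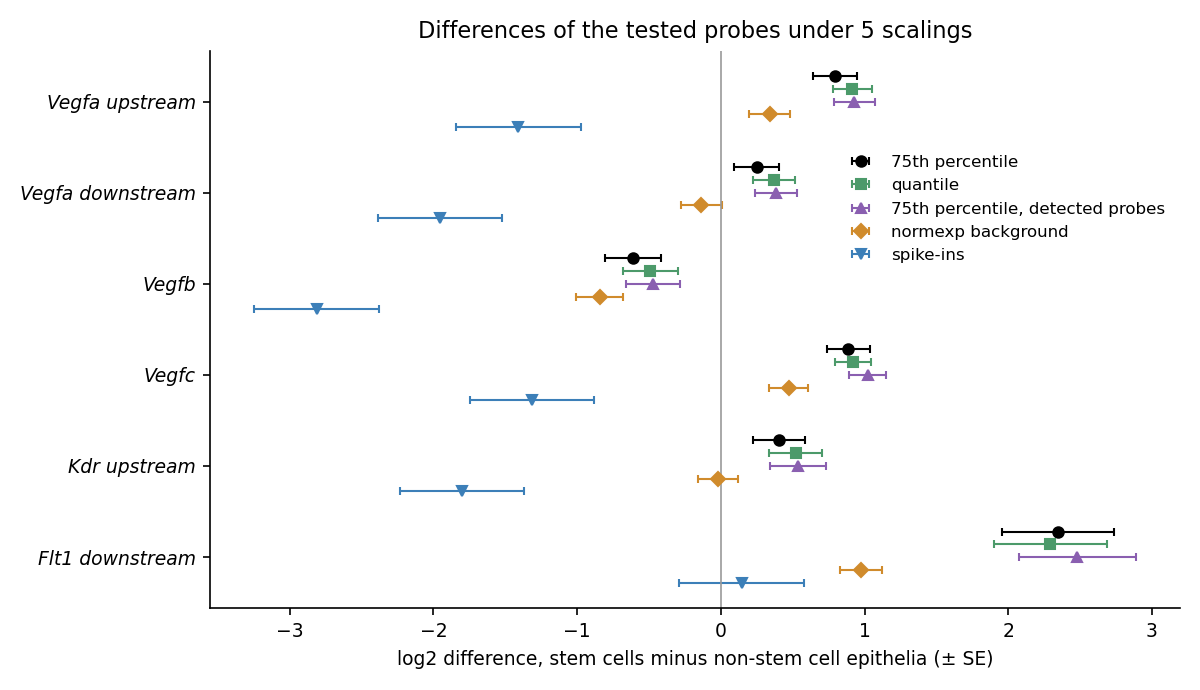
Log2 difference between stem cells and non-stem cell epithelia (x axis, points ± SE from limma, 2 arrays per group) of the 6 tested probes (y axis) under 5 scalings. The order of the probes is nearly kept, with Vegfb lowest and Flt1 highest throughout, while spike-in scaling moves every point to lower values and normexp puts Kdr at -0.02 and downstream Vegfa at -0.14.

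Flt1 had the largest difference of the 6 member probes above background on all arrays, and among 18181 other probes so measured its pattern was nearest to that of Cenpe, Ano9 and Ddx25. The root mean square distances, over 4 arrays with each probe centred on its own mean, were 0.07, 0.12 and 0.16, against a median of 1.23. Cenpe, which encodes a kinetochore motor of dividing cells, stood at 0.99 and 0.71 in stem cells, against -0.86 and -1.98 in the others. With 4 arrays in 2 groups such a likeness rests on few points.

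Promoter sequences are shown for the 3 genes with a probe called higher and for Vegfb, the ligand whose level lay lower in stem cells. Each is the 250 bases before the RefSeq transcription start on GRCm38.p6, 5′ to 3′ along the gene. Capitals mark the core of the hypoxia response element (ACGTG or GCGTG), the GC box (GGGCGG) and the TATA box (TATAAA), searched on both strands. No 2 of these matches overlap in the 4 windows.
Flt1 promoter, chr5:147726012-147726261 (- strand): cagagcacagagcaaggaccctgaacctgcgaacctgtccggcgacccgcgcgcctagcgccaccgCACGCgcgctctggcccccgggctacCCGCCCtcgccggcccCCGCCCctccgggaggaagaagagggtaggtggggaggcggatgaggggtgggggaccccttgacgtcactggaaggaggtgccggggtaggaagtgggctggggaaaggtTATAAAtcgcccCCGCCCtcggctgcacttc
Vegfc promoter, chr8:54077282-54077531 (+ strand): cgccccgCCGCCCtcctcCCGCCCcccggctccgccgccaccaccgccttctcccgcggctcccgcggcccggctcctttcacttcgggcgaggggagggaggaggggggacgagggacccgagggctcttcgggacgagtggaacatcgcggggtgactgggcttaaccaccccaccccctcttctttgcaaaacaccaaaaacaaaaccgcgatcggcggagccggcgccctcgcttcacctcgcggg
Vegfa promoter, chr17:46032378-46032627 (- strand): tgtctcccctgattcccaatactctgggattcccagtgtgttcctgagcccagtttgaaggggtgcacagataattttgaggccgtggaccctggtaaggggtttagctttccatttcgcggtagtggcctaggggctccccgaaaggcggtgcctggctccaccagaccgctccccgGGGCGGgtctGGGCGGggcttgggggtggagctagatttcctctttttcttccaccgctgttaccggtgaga
Vegfb promoter, chr19:6987652-6987901 (- strand): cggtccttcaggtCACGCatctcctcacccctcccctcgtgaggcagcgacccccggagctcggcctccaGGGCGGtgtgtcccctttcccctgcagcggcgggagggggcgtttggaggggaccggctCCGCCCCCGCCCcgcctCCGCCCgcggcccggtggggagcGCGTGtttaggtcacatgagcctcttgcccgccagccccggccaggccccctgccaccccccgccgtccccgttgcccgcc

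The Flt1 window holds 1 hypoxia core, 3 GC boxes and 1 TATA box, and was the only one of the 11 member windows in the RefSeq table with a TATA box. Vegfc and Vegfa hold 2 GC boxes each and no hypoxia core, and Vegfb holds 2 hypoxia cores and 4 GC boxes. Of 32851 promoter windows of this length, 38.6% hold a hypoxia core, 32.7% a GC box and 12.4% a TATA box. The matches are a description of these letters only. The 11 windows include a further start inside Vegfa (2 hypoxia cores and 1 GC box) and a further one of Pgf with no match.

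Genes of VEGF receptor signalling did not move in 1 direction. Of 32 listed, 29 were tested, of which 5 were higher and 7 lower (41.4%), against 28.9% of all genes tested that were called either way, 13.2% higher and 15.7% lower. The median log2 difference was -0.17, and 17 genes did not pass. Hspb1, the small heat shock protein phosphorylated after VEGF stimulation, rose by 2.09 ± 0.15 (SE), and the phospholipase gene Plcg2 by 1.34 ± 0.16. The kinase genes Src (1.28 ± 0.20) and Ptk2 (0.84 ± 0.15) and the nitric oxide synthase gene Nos3 (0.70 ± 0.15) were also higher. Prkcb, a protein kinase C gene, was not well above background in stem cells and at least 27.6-fold lower there. Rcan1, a calcineurin inhibitor and a known target of calcineurin and NFAT signalling, fell by 3.68 ± 0.31. Map2k1, Nfatc2, Dusp5, Prkca and Nck1 were the other lower genes, and Dusp5 was not above background in stem cells. Prkcb and Dusp5 were tested only because both non-stem arrays were above background, so their count as lower is no support. For Dusp5 the bound was 0.724-fold, so no lower level was shown against the limit in stem cells. With normexp 13 genes of the list were lower, when 5747 of all 22639 probes were lower, against 3586 in the main fit.

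Genes of the hypoxia response, which controls Vegfa transcription, mostly did not pass. All 24 listed genes were tested, with 3 higher, 2 lower and 19 not called, a share of 20.8% against 28.9%, and a median of -0.12. Ndrg1 rose by 4.17 ± 0.15 (SE), the adrenomedullin gene Adm, not well above background on non-stem replicate 1, by 4.15 ± 0.23 and Ddit4 by 1.11 ± 0.15. The collagen prolyl hydroxylase gene P4ha1 fell by 1.17 ± 0.17. The carbonic anhydrase gene Car9, above background only in non-stem cell epithelia, was at least 3.51-fold higher in them. Of the 24 genes, 3 were tested only because both non-stem arrays were above background. Car9 was the only one of them called, so its count as lower is no support. Hif1a, which encodes the oxygen-regulated subunit, had a difference of -0.52 ± 0.16 (limma adjusted p = 0.069). The glycolytic gene Ldha (-0.01 ± 0.16) and the glucose transporter gene Slc2a1 (-0.01 ± 0.18) did not pass by their brightest probes. Of the 3 tested Ldha probes, 1 was lower, with a log2 difference of -0.64. The lower count of the list was 7 with normexp, which called 5747 of all 22639 probes lower, against 3586 in the main fit.

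Class 3 semaphorins and plexins share the neuropilins with VEGF, and their list here also holds Gipc1, L1cam and Nrcam. Of the 15 listed genes 9 were tested, with Gipc1 and L1cam among them. In the list 4 were higher and 0 lower (44.4%, against 28.9% of all genes called either way and 13.2% higher). By unadjusted p under 0.05 in limma the counts were 5 and 0, against 4549 and 5208 of all 22639 probes tested. Sema3c rose by 1.17 ± 0.17 (SE), Sema3b by 1.17 ± 0.18 and Sema3f by 0.90 ± 0.15. The brightest probe of the plexin gene Plxnd1 rose by 1.83 ± 0.17, but its other tested probe was lower, with a log2 difference of -1.75, so its direction is uncertain. The median was 0.56. Among other angiogenic ligands, receptors and inhibitors, 12 of 22 were tested, and 9 were higher and 0 lower (75%, against the same 28.9% and 13.2%), with a median of 1.18. By unadjusted p in limma the counts were 12 and 0, against the same 4549 and 5208 of all 22639 probes. Angpt1, a ligand that stabilises vessels, rose by 1.98 ± 0.18 and the growth factor gene Pdgfc by 1.76 ± 0.16. The inhibitor genes Col18a1, source of endostatin, and Thbs1 rose by 1.22 ± 0.15 and 1.54 ± 0.19. Of the angiopoietin receptor genes, Tie1 was above background on no array and Tek on 1.

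Of 20 markers of endothelial cells, where VEGF receptors are normally found, 9 were higher in stem cells, as was Flt1. In all 12 were tested, with 9 higher and 1 lower (83.3%, against 28.9% of all genes called, 13.2% higher and 15.7% lower), and the median was 2.20, or 1.90 with the 5 genes measured in 1 group only set to their bounds. Cd34, Ramp2, Mmrn2 and Icam2 were tested only because both stem cell arrays were above background, so their count in that direction is no support. Ly6c1 rose by 3.46 ± 0.18 (SE) and Robo4, not well above background on non-stem replicate 2, by 2.36 ± 0.21, while Mmrn2 was at least 7.45-fold and Cd34 at least 3.29-fold higher. Vwf fell by 2.85 ± 0.29. The summed linear level of the 12 tested markers was 21.8 and 23.2 times the 75th percentile in stem cells, against 15.8 and 16.4 times in non-stem cell epithelia. Such a sum weights bright probes: Ly6c1 alone stood at a log2 level of 3.48 on both stem cell arrays, and Vwf at 3.57 and 3.66 on the others. Cdh5, Emcn, Esam, Sox17, Sox18, Erg and Clec14a, 7 of the 20, were above background on no array. Pecam1 stood at -1.86 and -3.10 in stem cells, not well above background there, and -2.03 and -1.93 in the others. When only probes above background on all arrays were tested, 3 of the markers were higher. The part of endothelial cells in the Flt1 result was not tested. In these bulk samples, fewer cells of a type and less RNA per cell cannot be told apart.

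**Figure D4:**
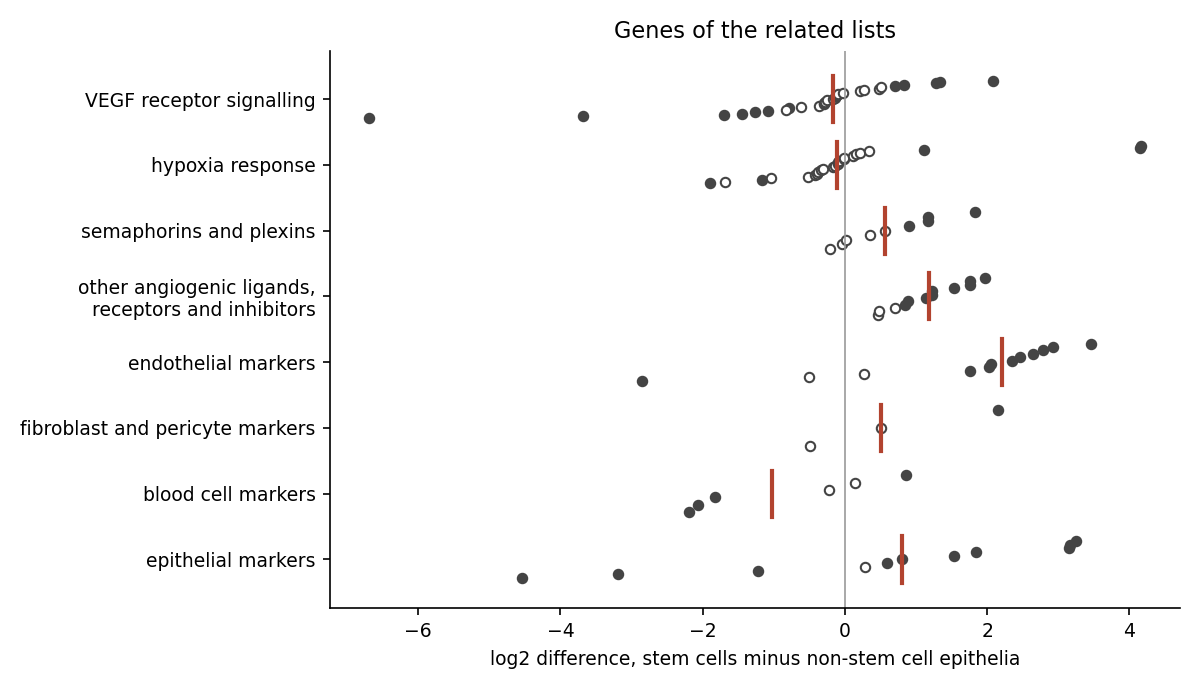
Log2 difference between stem cells and non-stem cell epithelia (x axis) of each tested gene, by its brightest probe, in the lists related to the VEGF family and in the marker lists (y axis), filled where the limma adjusted p was under 0.05, with red bars at the medians. Endothelial markers have a median of 2.20 and genes of VEGF receptor signalling one of -0.17, and spike-in scaling would move all points down by about the same amount.

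Epithelial markers were measured in both groups. All 11 epithelial markers were tested, with 7 higher and 3 lower in stem cells and a median of 0.80. Epcam and Krt8 were above background on all arrays, the basal keratin genes Krt5 and Krt14 rose by 3.15 ± 0.20 (SE) and 3.17 ± 0.17, and the acinar water channel gene Aqp5 fell by 3.19 ± 0.16. The Krt8 probes differed, at 0.59 ± 0.15 and -0.20 ± 0.19, and Epcam fell by 1.22 ± 0.19. The share called was 90.9%, against 28.9% of all genes. Of 10 fibroblast and pericyte markers, 3 were tested and 1 was higher (33.3%), while 5, with Col1a1 among them, were above background on no array. The 3 tested genes were above background on all arrays. Dcn was the higher one (2.15 ± 0.16, SE), and Notch3 (0.50 ± 0.16) and Col1a2 (-0.49 ± 0.17) did not pass. Of 9 blood cell markers, 6 were tested, 1 was higher and 3 lower (66.7%), and Ptprc, the gene of all white blood cells, was above background on no array. The higher one was Itgam (0.86 ± 0.20, SE, limma adjusted p = 0.030). Csf1r (-0.22 ± 0.22) and Cd3e (0.14 ± 0.20) did not pass by their brightest probes. Of the 3 tested Csf1r probes, 1 was higher, with a log2 difference of 0.97. Itgam, Csf1r and Cd3e, all white blood cell genes, were above background on all arrays by these brightest probes. Of the lower blood cell markers, the haemoglobin genes Hba-a1 and Hbb-b1 fell by 2.19 ± 0.18 (SE) and 2.06 ± 0.15. No lymphatic endothelial marker of the 4 on the array was above background on any array.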

How the data were processed

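RNA of sorted stem cells and non-stem cell epithelia was measured on 4 one-colour Agilent arrays, 2 per group. Spot intensity in the deposited scanner files is linear and was made by Feature Extraction 10.7.3.1 per the file headers; the submitters' processing notes name version 9.1. The deposited series table holds log2 values of the authors, whose array differences correlated with those of the scanner values at 1.00, so its scale and direction are settled and only its baseline per probe stays unknown. Its column medians were -0.27, -0.55, -0.83 and -0.75.

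Background-corrected signals of the 59305 non-control spots were put on the log2 scale, shifted by the array's 75th percentile, and averaged per probe without flagged spots. No spot was saturated. A probe counted as well above background where the majority of its spots did, and was tested where this held on at least 2 arrays. The 22639 probes were fitted together in R 4.3.3 with lmFit and eBayes of limma 3.58.1 (two-sided test, Benjamini-Hochberg over all probes, threshold 0.05), without a block. A gene in a list is its brightest tested probe. A fold written as "at least" sets the brighter group's mean against the higher of the dim probe and the weakest signal well above background; the p-value does not test it. Names followed RefSeq accessions for 26582 probes and the array for 29099. The fit was tested on simulated data. The sequence and position of the upstream Vegfa probe are not reported here.

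Members, lists and rules for naming genes were chosen with earlier results of these data known. Named genes are the members, 10 fixed genes and up to 4 of smallest p per list. Src, Ptk2, Nos3, Map2k1, Nfatc2, Dusp5, Prkca, Nck1, Car9, Hif1a, Ldha, Slc2a1, Tie1, Tek, Vwf, Ramp2, Icam2, Hba-a1, Hbb-b1 and the undetected endothelial markers were added after their values were seen. So were the fibroblast, pericyte and white blood cell markers other than Col1a1 and Ptprc. The alternatives were quantile normalization, a percentile over detected probes, normexp with an offset of 50, the deposited values, other filters, a variance trend, the replicate block, gene means, a 2-fold minimum, leaving out each array and, added after seeing the data, spike-in scaling.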

Additional observations from a re-analysis of the deposited data

How the results depend on the processing

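Without a filter none of the 3 higher member probes passed, and the count of 1 higher probe, or 1 gene by brightest probe, was the downstream Nrp2 probe, above background on no array (limma adjusted p = 0.028). With a 2-fold minimum 1 probe and 1 gene, Flt1, were higher, and with spike-in scaling 0 and 0. The 0 lower became 1, Vegfb, with normexp, with the filter on all arrays and with the variance trend, and 5 probes or 4 genes with spike-in scaling. That scaling reversed Vegfc (-1.32), upstream Vegfa (-1.41), downstream Vegfa (-1.95) and Kdr (-1.80) and left Flt1 at 0.14; relative to the median of all probes, -2.21, these were 0.90, 0.81, 0.26, 0.41 and 2.36. Normexp reversed downstream Vegfa (-0.14) and Kdr (-0.019). Of the lists, receptor signalling had 5 higher and 7 lower, which became 1 and 2 without a filter, 3 higher with a 2-fold minimum, 13 lower with normexp and 0 and 28 with spike-in scaling. The 2 lower hypoxia genes became 7 with normexp, 4 with the deposited values, 0 without a filter, 6 with the variance trend and 22 with spike-in scaling. The 4 higher genes of the semaphorin and plexin list became 2 without a filter and 0 with spike-in scaling, with 8 lower there. The 9 other angiogenic genes became 2 and 0, with 8 lower. The 9 higher endothelial markers became 3 with the filter on all arrays and 1 with spike-in scaling, with 3 lower. Calls over all 22639 probes also moved, from 2955 higher and 3586 lower to 2714 and 5747 with normexp. They were 4426 and 4987 with the variance trend, and 889 and 793 of 55674 probes without a filter. The causes were not tested, except that fewer probes pass the stricter filter.

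Leaving out 1 array gave 0 to 3 higher and 0 to 1 lower member probes, and 0 to 2 higher and 0 to 1 lower members. In the lists it gave 1 to 7 higher and 2 to 8 lower for receptor signalling, 2 to 3 and 0 to 4 for hypoxia, 1 to 5 and 0 to 1 for semaphorins and plexins, 3 to 10 and 0 to 0 for other angiogenic genes, and 5 to 9 and 0 to 2 for endothelial markers. The lone array of a group is then assumed to vary like the other group. The lowest counts came without either non-stem array, when calls over all probes were 706 higher and 837 lower (without replicate 1) or 457 and 576 (without replicate 2).

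Higher probes were 45.2% of all calls, 58.6% with the percentile over detected probes, which moved the median to 0.12, 32.1% with normexp and 0.72% with spike-in scaling. Samples with the same replicate number did not deviate together (r = -0.08 over 22639 probes, a description), so the number is not a known pairing. With the replicate block 2733 probes were higher and 3562 lower, and the lower hypoxia genes were 4. Signals of Flt4, Nrp1, Nrp2 and Pgf lay near background, which limits any statement on them.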
